A study of Mus musculus with 4 samples.

Results

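Migratory dendritic cells are the dendritic cells of a tissue that have matured, taken up the lymph node homing receptor CCR7 and prepared to leave with their antigen. Here they were chosen by a rule on raw UMI counts, a UMI being a tag for 1 original RNA molecule. A cell was a member with at least 1 UMI of Ccr7, at least 1 of Fscn1, none of Cd3d, Cd3e and Cd3g, and at most 1 of C1qa, C1qb and C1qc together. Of 25954 cells that had 300 genes or more, no more than 60000 UMIs and a mitochondrial share of 10% or less, 229 were members (0.882%). The 2 genes of the rule therefore describe how the cells were found and are no result.

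The cells came from subcutaneous B16-GP33 melanomas, a mouse melanoma line that carries the viral GP33 peptide, in C57BL/6 mice. The 4 groups received a control IgG, an antibody to PD-1, an antibody to PSGL-1, or both antibodies together, at 200 ug of each on days 8, 10 and 12 after injection. All mice carried tumours, were given an antibody and were dissected on day 18. Living cells, by propidium iodide, with the leukocyte protein CD45.2 on them were sorted and captured on the 10x Genomics platform, and how many animals a library holds, their age and their sex are not stated in the labels. Each group was 1 library, so differences below have no replicate check and groups could not be tested against each other. Each interval is an exact 95% interval and covers counting error only.

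CCR7 is the receptor for chemokines of lymphatic vessels and lymph nodes, and FSCN1 (fascin) bundles actin into the long processes of mature dendritic cells. On maturation, conventional dendritic cells of type 1 (cDC1) and type 2 (cDC2) lose many of the genes that tell them apart and gain a shared programme of chemokines, costimulatory ligands, inhibitory ligands such as PD-L1, and NF-kappaB genes. In tumours such cells are known as a source of IL-12 and of the chemokine CCL22. PD-1 is an inhibitory receptor of T cells whose ligands these cells carry, and PSGL-1, which binds selectins, is carried by leukocytes and is also known to restrain T cells.

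Among the genes that differed most between libraries were interferon-induced genes, so the 250 bases before the start of 3 of them are given here from RefSeq (GRCm38.p6, 5′ to 3′ on the gene's strand). Capitals mark matches to GAAANNGAAA or its other strand TTTCNNTTTC, a short form of the element that interferon-activated factors bind, searched on both strands. Isg15, a ubiquitin-like modifier, lies on the minus strand and its stretch is chr4:156200819-156201068. Ifit1, an antiviral RNA-binding protein, is on the plus strand (chr19:34640639-34640888), and Cxcl10, a ligand of the T cell receptor CXCR3, on the minus strand (chr5:92348890-92349139).
Isg15: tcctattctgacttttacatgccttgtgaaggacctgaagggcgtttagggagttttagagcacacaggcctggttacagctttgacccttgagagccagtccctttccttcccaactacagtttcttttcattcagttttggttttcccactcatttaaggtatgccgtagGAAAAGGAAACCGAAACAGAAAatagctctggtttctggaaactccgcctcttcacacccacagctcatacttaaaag
Ifit1: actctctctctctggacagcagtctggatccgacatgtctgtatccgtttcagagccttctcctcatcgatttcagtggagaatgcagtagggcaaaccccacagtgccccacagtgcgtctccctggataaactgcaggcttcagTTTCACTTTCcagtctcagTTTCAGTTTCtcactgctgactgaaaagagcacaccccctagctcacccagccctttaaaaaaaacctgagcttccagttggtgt
Cxcl10: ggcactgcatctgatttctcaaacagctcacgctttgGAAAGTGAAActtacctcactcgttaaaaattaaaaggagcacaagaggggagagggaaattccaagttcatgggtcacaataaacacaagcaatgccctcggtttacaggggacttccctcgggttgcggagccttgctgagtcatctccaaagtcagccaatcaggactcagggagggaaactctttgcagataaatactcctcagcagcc
The Isg15 stretch holds 3 overlapping matches within the bases 78 to 57 before the start. In Ifit1 there are 2, at 104 to 95 and at 85 to 76 bases before the start, and in Cxcl10 1, at 213 to 204. Of the 27025 genes with a promoter given there, 936 hold the motif (3.46%), against 6 of 16 matched genes of the type I interferon list and 9 of 13 of the interferon-gamma list. A form of the NF-kappaB motif, GGGANNTTCC, was in the promoters of 368 of the 27025 genes (1.36%), in 2 of 20 matched genes of the NF-kappaB and survival list and in 0 of 20 of the migratory programme. A match is a string of letters and not a measured site.

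The libraries held 45411218, 40913129, 53303195 and 44983543 UMIs (IgG first, then anti-PD-1, then anti-PSGL-1, then both antibodies, an order used throughout), and kept 9465, 5238, 6869 and 4382 cells. The members numbered 98, 32, 92 and 7. Their summed UMIs were 593773, 276499, 748608 and 85622, with median UMIs per cell of 5825.5, 8757.5, 7556 and 13015. The IgG members were thus the shallowest, and shares of cells with a UMI are given below with every cell thinned to 2000 UMIs, which left out 2, 1, 2 and 0 members. The 7 members of the combination library are too few for counts over gene lists, and their values are given only gene by gene. Across libraries 61 kept barcodes recurred, 2 member barcodes were kept in another library too, and 0 barcodes were members in more than 1 library.

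The label held against genes that the rule did not use. Ccl22, a chemokine for cells with CCR4, had a UMI in 49.0%, 48.4%, 56.7% and 85.7% of thinned members in the same library order (61.2%, 71.9%, 75% and 85.7% before thinning). In thinned Cd3-positive cells, which should lack it, the shares were 1.43%, 0.378%, 1.39% and 0.146%, and in C1q-positive macrophages 0.364%, 0.537%, 0.780% and 0.294%. Members therefore stood far above these other cells of the same libraries. The level of free RNA itself was not measured. Il4i1, an amino acid oxidase of mature dendritic cells, was found in 50%, 64.5%, 45.6% and 42.9% of thinned members, and Cacnb3, a calcium channel subunit, in 67.7%, 61.3%, 63.3% and 71.4%. Members also held a large part of all UMIs of some genes: of Cacnb3 56.7%, 51.4% and 51.9% in the IgG, anti-PD-1 and anti-PSGL-1 libraries, of Slc27a3 60.3%, 82.5% and 61.1%, and of Il12b 34.2%, 33.8% and 40.8%.

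Unsupervised clustering put 211 of the 229 members (92.1%) in 1 cluster of 371 cells led by Fscn1, Il12b, Ccl22 and Ccr7. It held 86 of 98, 30 of 32, 88 of 92 and 7 of 7 members in library order, so IgG members were least often inside. Outside it, 7 members, 6 of them from IgG, lay in a cluster led by the regulatory T cell gene Foxp3. Clusters led by Cd209a and by Ly6i and Cxcl9 held 6 and 3, and those led by Xcr1 and by Cd79a held 1 each. Of the 160 other cells of the main cluster, 99 held a Cd3 UMI, 57 lacked Ccr7 or Fscn1, and 4 had more than 1 C1q UMI. The limits of the rule were less sharp for Cd3 than for C1q. Cells with both genes, little C1q and a Cd3 UMI numbered 107, 8, 52 and 10 in the 4 libraries, and only 5 cells in all were kept out by C1q. In the IgG library those 107 cells had 1635 CPM (UMIs of the gene per 1000000 UMIs summed over the cells) of Ccr7 against 4318 in the members, and 1131 CPM of the killer cell gene Nkg7 against 40.4. Near the lower limit, 15 members had exactly 1 UMI of Ccr7 or of Fscn1 and 40% of them held Ccl22, against 71.0% of the 214 with at least 2 of each. Just outside, Ccl22 was in 10.5% of the 811 cells with Ccr7 alone and in 14.7% of the 34 with Fscn1 alone.

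Markers of other cell types were mostly held by few members. Of 16 macrophage and monocyte markers, 12, 14, 13 and 3 were detected, with summed levels of 1034, 955, 271 and 152 CPM, and Mrc1 and Nos2 were at 0 in every library. Those UMIs sat in few cells: 62, 18, 47 and 5 members had none, and 1 cell held 68.9% of them in the anti-PD-1 library. Of 14 T and NK markers, 10, 5, 9 and 4 were detected, summed to 116, 54.2, 178 and 58.4 CPM, with Cd3 genes at 0 by the rule and Cd4 at 0 as measured. B cell markers summed to 0 to 25.4 CPM and mast cell and basophil markers to at most 1 UMI. Neutrophil markers summed to 333, 86.8, 358 and 269 CPM, with 65.2%, 25%, 76.1% and 78.3% in 1 cell. All of it in the combination was Il1r2, also among the leading genes of the cluster led by Cd209a. S100a8 and S100a9 were at 0 in anti-PD-1 and in the combination. Plasmacytoid markers were more widely held, summed to 396, 409, 325 and 152 CPM with at least 2 UMIs in 56.1%, 59.4%, 59.8% and 42.9% of members, while the defining genes Siglech and Ccr9 were at 0.

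**Figure D1:**
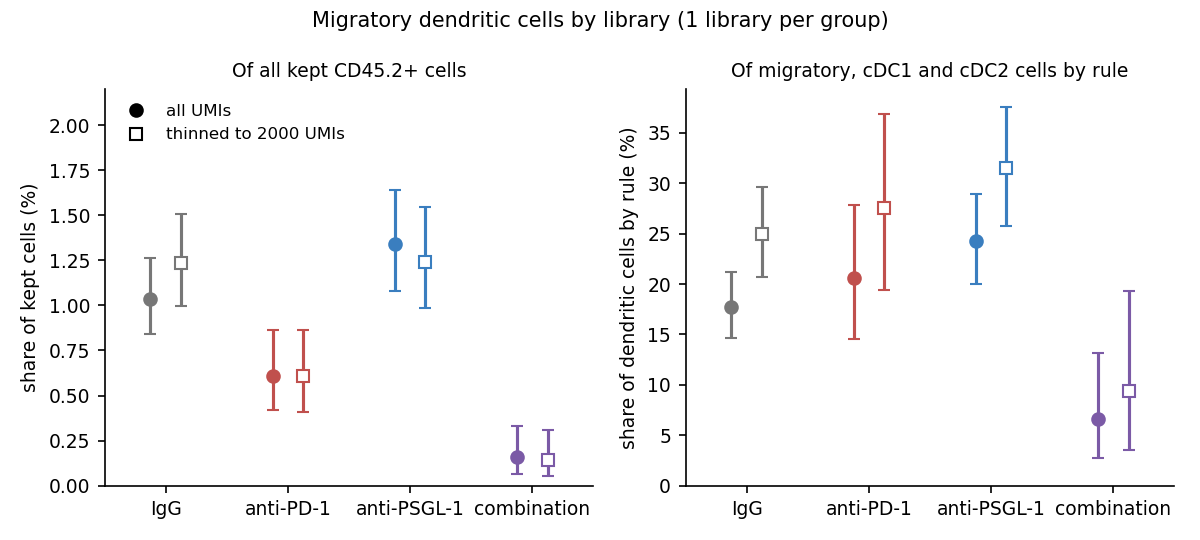
Share of cells (percent, vertical axis) that were migratory dendritic cells in each of the 4 libraries, of all kept cells and of dendritic cells found by rule, as points with exact 95% intervals for counting error. The combination library is lowest in both, at 0.160% and 6.60%.

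Migratory dendritic cells made up about 1 cell in 100 of the sorted leukocytes and were scarcest when both antibodies had been given. They were 1.04% of kept cells (0.841 to 1.26) in the IgG library, 0.611% (0.418 to 0.861) in anti-PD-1, 1.34% (1.08 to 1.64) in anti-PSGL-1 and 0.160% (0.0642 to 0.329) in the combination. Against IgG the share was 0.590 times as large with anti-PD-1 (0.383 to 0.887), 1.29 times with anti-PSGL-1 (0.963 to 1.74) and 0.154 times with both (0.0604 to 0.330). The combination also lay below each single antibody, at 0.261 of the anti-PD-1 share (0.0974 to 0.603) and 0.119 of the anti-PSGL-1 share (0.0466 to 0.256). With every cell thinned to 2000 UMIs the shares were 1.23%, 0.606%, 1.24% and 0.141%, with 1756, 289, 502 and 131 shallower cells left out, so that IgG and anti-PSGL-1 were nearly level. The intervals of those 2 libraries overlap in both versions.

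Set against dendritic cells alone, the anti-PD-1 library no longer stood below IgG. Cells by a cDC1 rule (at least 2 UMIs of Xcr1 and Clec9a together) numbered 164, 53, 123 and 48, and cells by a cDC2 rule (at least 2 UMIs of Cd209a) 291, 70, 164 and 51. Members were 17.7% of members, cDC1 and cDC2 together in IgG (14.6 to 21.2), 20.6% in anti-PD-1 (14.6 to 27.9), 24.3% in anti-PSGL-1 (20.0 to 28.9) and 6.60% in the combination (2.70 to 13.1). The ratios to IgG were 1.16 (0.756 to 1.75), 1.37 (1.02 to 1.84) and 0.373 (0.146 to 0.797). With cells thinned they were 1.10 (0.705 to 1.68), 1.26 (0.922 to 1.71) and 0.375 (0.134 to 0.847), so the anti-PSGL-1 interval then covered 1. With cDC1 and cDC2 taken at 1 UMI they were 1.02 (0.661 to 1.53), 1.61 (1.20 to 2.17) and 0.363 (0.142 to 0.777). The combination was lowest and the anti-PD-1 interval covered 1 in every version. A share of sorted cells falls when other cells increase, and the 2 cannot be told apart. Deeper libraries and the Cd3 limit both bear on the share: without that limit it was 2.17% in IgG, 2.10% in anti-PSGL-1 and 0.388% in the combination.

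**Figure D2:**
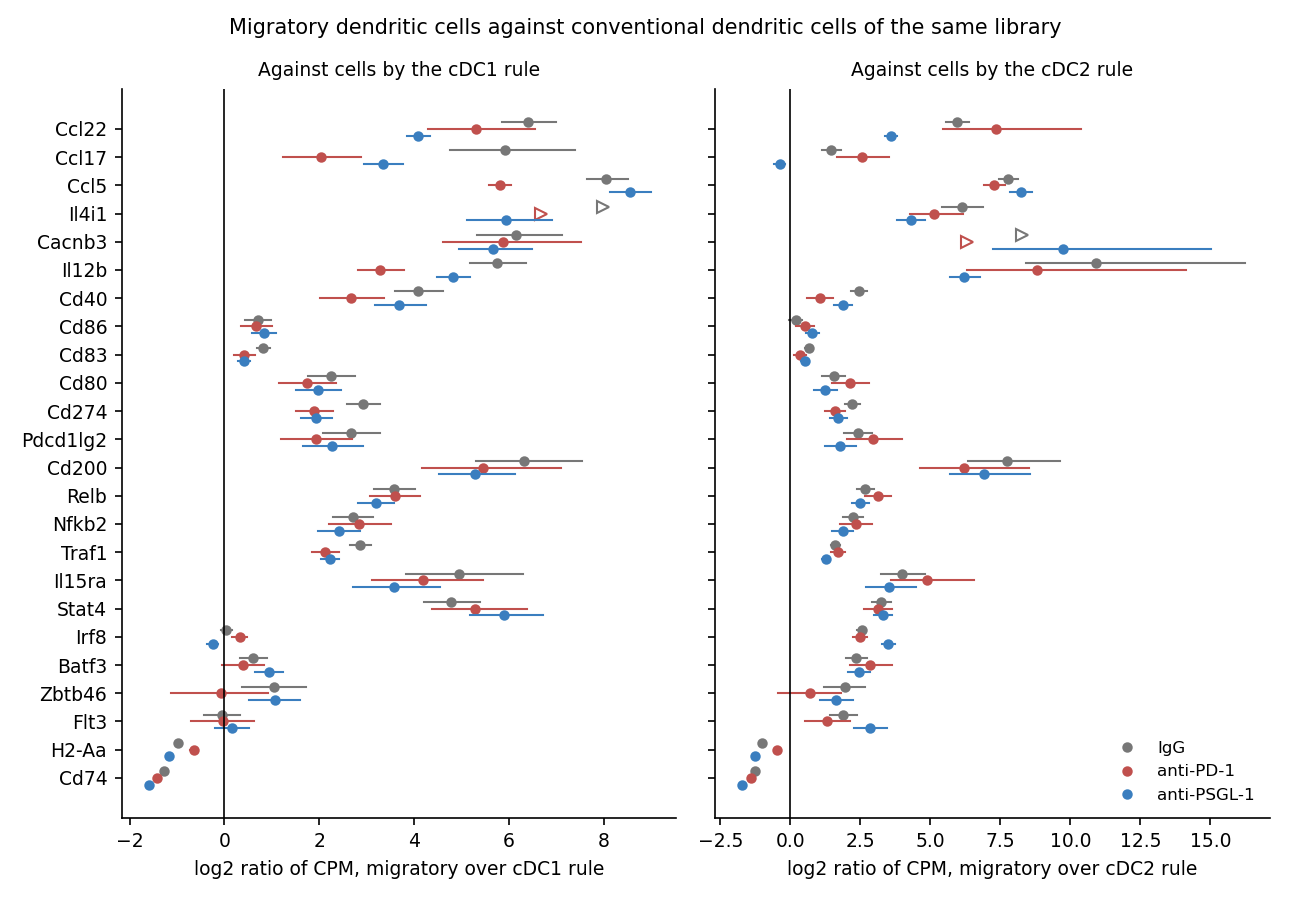
Log2 ratio of CPM in migratory dendritic cells over cells by the cDC1 rule (left) and the cDC2 rule (right) of the same library, for 24 genes; points are ratios, lines exact 95% intervals, and open triangles mark the lower bound where the other cells had 0 UMIs. Ccl22, Ccl5, Cd40, PD-1 ligand and NF-kappaB genes lie right of 0 and the class II genes H2-Aa and Cd74 left of it; Ccl17 lies left of 0 only against cDC2 in anti-PSGL-1, at 0.769 times.

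Compared with cDC1 and cDC2 of the same library, migratory cells were richer in genes of the migratory programme, in NF-kappaB genes and in costimulatory genes, and poorer in class II genes and in pattern recognition receptors. Because the rule and the comparison use the same cells, what follows is a description. Genes that chose the members or the comparison cells were not taken out of the list counts or medians. Where a list holds such a gene, its part in the count was set by that choice and is no result. A gene counted as higher or lower when it was past 1.5-fold in each of the 3 libraries with at least 30 members. Against cDC1, 523 of 2626 genes at 50 CPM or more were higher (19.9%) and 594 lower (22.6%), and against cDC2, 502 of 2673 were higher (18.8%) and 669 lower (25%).

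The migratory programme, a list of genes known from such cells, was higher for 24 of 24 measured genes against cDC1 and for 23 of 24 against cDC2. Its median log2 ratios over cDC1 were 6.04, 5.24 and 4.86 in IgG, anti-PD-1 and anti-PSGL-1, where all measured genes had medians of -0.11, -0.16 and -0.13. The exception against cDC2 was Ccl17, a CCR4 ligand like CCL22, at 2.76, 5.83 and 0.769 times the cDC2 level. Ccl22 was 84.1, 39.6 and 17.0 times the cDC1 level and 61.7, 162 and 12.1 times the cDC2 level. Of the whole chemokine list 4 of 9 genes were higher and 1 lower against cDC1, and 3 of 10 higher and 2 lower against cDC2. The Ccl22 ratio was smallest in the anti-PSGL-1 library, where the cDC1 and cDC2 levels of Ccl22 were 97.6 and 137 CPM against 18.7 and 25.5 in IgG. Ccl5, a chemokine that draws lymphocytes, was far above both, with 7868, 14496 and 10650.4 CPM in members against 29.7, 260 and 28.6 in cDC1. A Ccl5 UMI was in 85.7% to 93.5% of thinned members, against 12.0% to 21.5% of C1q-positive cells and 73.4% to 87.0% of Cd3-positive cells, and T cells are known to express Ccl5 themselves.

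Costimulatory genes and inhibitory genes were mostly higher in members than in cDC1 and cDC2. Among costimulation and maturation genes 7 of 9 were higher against cDC1 and 5 of 9 against cDC2, with 1 lower in each. Cd40, the receptor for the CD40 ligand of T cells, was 17.0, 6.35 and 12.9 times the cDC1 level and 5.44, 2.08 and 3.69 times the cDC2 level. Cd80 was 4.75, 3.35 and 3.93 times the cDC1 level, while Cd86, the other ligand of CD28, was only 1.65, 1.59 and 1.79 times as high. Tnfsf9, the ligand of 4-1BB, parted the comparisons: 5.90, 4.40 and 2.66 times the cDC1 level but 1.06, 0.423 and 0.456 times the cDC2 level. Inhibitory and regulatory genes were higher in 8 of 12 against cDC1, with 2 lower, and in 6 of 11 against cDC2, with 3 lower. PD-L1 (Cd274) was 7.62, 3.72 and 3.82 times the cDC1 level, PD-L2 (Pdcd1lg2) 6.35, 3.81 and 4.84 times, and Cd200, whose receptor restrains myeloid cells, 79.0, 43.6 and 38.7 times.

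Genes of the NF-kappaB pathway and of survival were higher in 17 of 19 against cDC1 and in 11 of 20 against cDC2, with 1 lower against cDC2. Relb and Nfkb2, the partners of the alternative pathway that follows CD40 signalling, were 12.0, 12.0 and 9.14 times and 6.51, 7.17 and 5.32 times the cDC1 level. Birc2, an inhibitor of apoptosis, was 19.0, 16.4 and 21.3 times the cDC1 level. Cytokine and receptor genes were higher in 8 of 12 against cDC1, with 2 lower, and in 6 of 12 against cDC2, with 3 lower. Il12b, the subunit shared by IL-12 and IL-23, had 928, 720 and 1352 CPM in members against 17.4, 74.0 and 47.9 in cDC1 and 0.480, 1.61 and 18.4 in cDC2. Il15ra, which presents IL-15 to T and NK cells, was 30.6, 18.1 and 11.9 times the cDC1 level, and Stat4, a transducer of IL-12 signals, 27.4, 39.2 and 59.7 times. Il1b did not follow this pattern, at 0.962, 0.945 and 0.792 times the cDC1 level and 0.540, 0.506 and 0.315 times the cDC2 level.

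Class II presentation was lower in 10 of 14 genes against cDC1, with 2 higher, and in 6 of 13 against cDC2, with 0 higher. Its median log2 ratios over cDC1 were -1.25, -1.46 and -1.52. H2-Aa, a chain of the class II molecule, was at 0.505, 0.641 and 0.443 of the cDC1 level and Cd74, its chaperone, at 0.412, 0.374 and 0.333. Ciita, the activator of class II transcription, was at 0.336, 0.237 and 0.313, and H2-DMb1, a peptide loader, at 0.0894, 0.0346 and 0.0393. Class I presentation went the other way for 4 of 12 genes against cDC1 and 5 of 12 against cDC2, with 1 lower in each. B2m was 2.97, 2.34 and 2.60 times the cDC1 level. All 5 measured pattern recognition genes were lower in both comparisons, Cd14 at 0.114, 0.113 and 0.0320 of the cDC2 level. Clec9a is on that list and helped choose the cDC1 cells, so its own level against cDC1 is no result.

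Genes that define cDC1 and cDC2 were mostly low, except those for transcription factors of the cDC1 line. Of 13 cDC1 markers 11 were lower than in cDC1, such as Naaa at 0.0259, 0.00777 and 0.0212 and Itgae (CD103) with 0 UMIs in 2 of the 3 libraries. Of 10 cDC2 markers 9 were lower than in cDC2, such as the lectins Clec10a, at 0.0252, 0.0141 and 0.0175, and Mgl2, at 0.0166, 0.0244 and 0.0104. The cDC1 list holds Xcr1 and Clec9a and the cDC2 list Cd209a. These genes chose the comparison cells, so their part in the counts is no result. Irf8, which cDC1 need to form, was at 1.03, 1.25 and 0.841 of the cDC1 level and at 5.87, 5.59 and 11.4 times the cDC2 level. Batf3, its partner, was 1.53, 1.31 and 1.92 times the cDC1 level. Counting UMIs of only a part of the subset markers in each cell, 57.1%, 56.3% and 55.4% of members in IgG, anti-PD-1 and anti-PSGL-1 had none of either subset. More cDC2 than cDC1 UMIs of that part were in 28.6%, 25% and 28.3%, and the reverse in 13.3%, 18.8% and 14.1%, with intervals that overlap across the libraries. Over the whole lists, at least 2 UMIs of cDC1 markers were in 87.8%, 93.8% and 93.5% of these members. For cDC2 markers the shares were 69.4%, 71.9% and 71.7%.

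**Figure D3:**
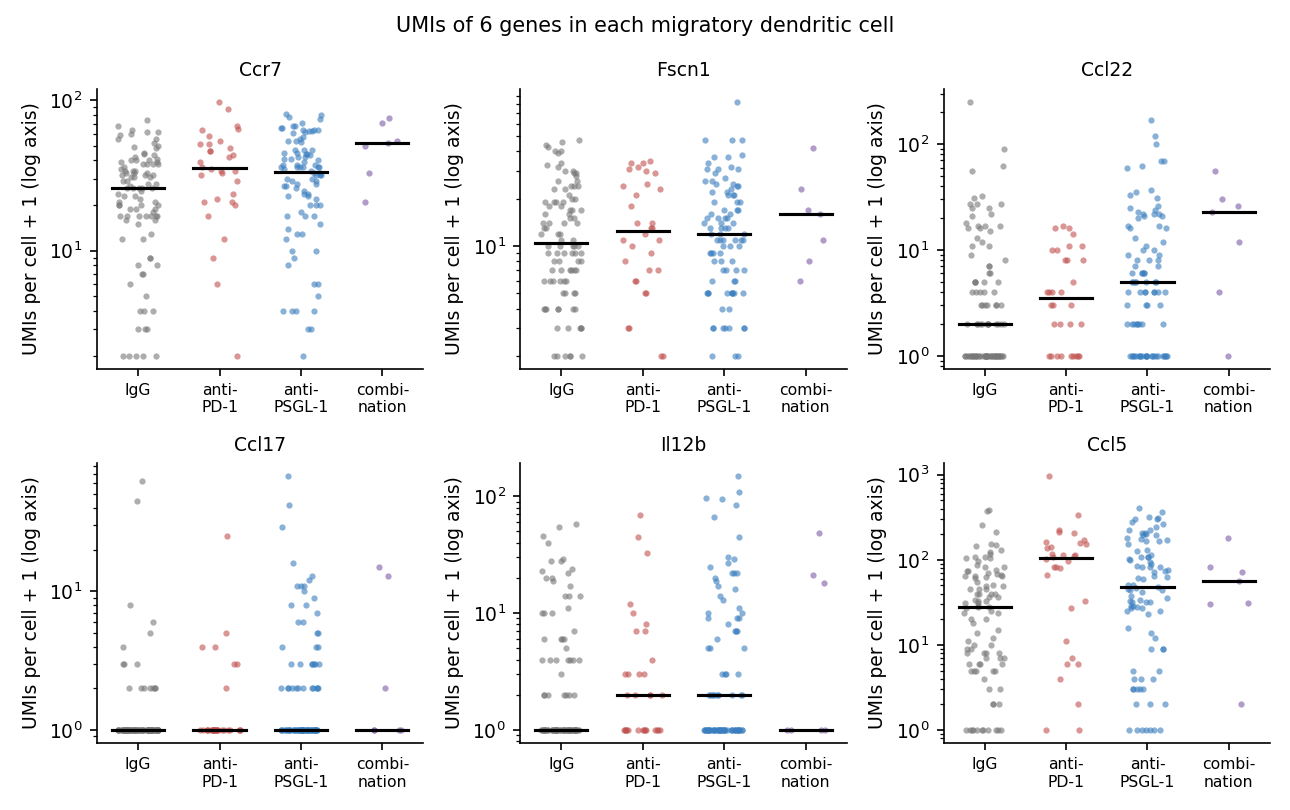
UMIs of 6 genes in each of the 229 members by library (log axis, UMIs + 1); each point is a cell and each bar a median. Ccr7 and Fscn1 are above 0 in every cell by the rule, while Ccl22 and Il12b run from 0 to 250 and 148 UMIs in single cells.

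Members were uneven in their RNA for secreted proteins. Ccl22 ranged from 0 to 250 UMIs in an IgG cell, with a median of 1, and 10% of the IgG members held 66.1% of it. In the other 3 libraries, in order, the highest cells held 16, 166 and 55 UMIs, with medians of 2.5, 4 and 22. Ccl17 was narrower still, found in 16 of 98, 7 of 32, 40 of 92 and 3 of 7 members, and 1 cell gave 44.9%, 61.5%, 22.8% and 51.9% of its UMIs. Il12b was in 42 of 98, 18 of 32, 48 of 92 and 3 of 7 members, up to 57, 68, 148 and 47 UMIs in a cell. A few cells thus set much of these chemokine and cytokine levels. Tmem123, a membrane protein, lay at the other end: it was in 95 of 98, 32 of 32, 91 of 92 and 7 of 7 members, and 1 cell gave 3.93%, 6.40%, 2.83% and 25.2% of its UMIs. Stimulatory and inhibitory genes were both common. A UMI of Cd40, Cd80 or Cd86 was in 68.8%, 83.9%, 74.4% and 85.7% of thinned members. One of Cd274 or Pdcd1lg2 was in 60.4%, 77.4%, 41.1% and 28.6%. Both kinds were in 40.6% (30.7 to 51.1), 67.7% (48.6 to 83.3), 28.9% (19.8 to 39.4) and 28.6% of thinned members. Before thinning, both were in 78.6%, 96.9%, 70.7% and 71.4%. Whether they met more often than their single shares would give was not tested.

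**Figure D4:**
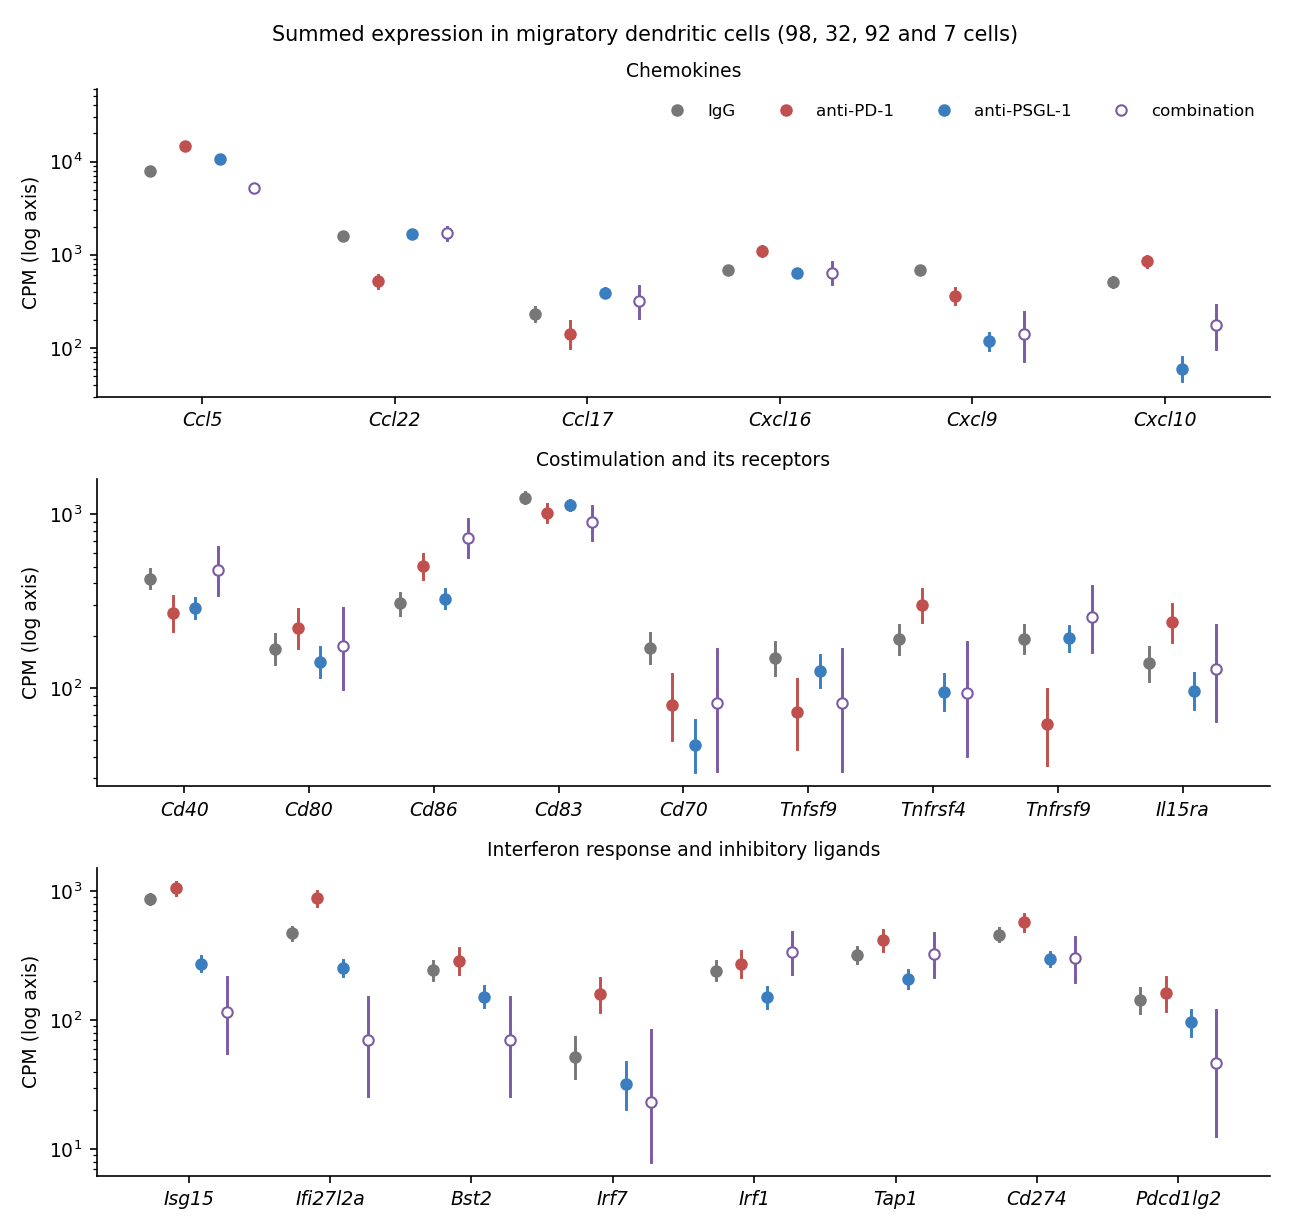
CPM summed over the members of each library (log axis) for chemokines, costimulation genes and interferon and inhibitory genes; points are levels and lines exact 95% intervals, drawn from 8 CPM up, with open points for the 7 combination cells. Ccl22 is lowest in anti-PD-1, at 521 CPM, and Cxcl10 lowest in anti-PSGL-1, at 60.1 CPM.

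The anti-PD-1 members differed from IgG members in chemokines, in a set of interferon-induced genes and in single costimulatory genes. Ccl22 was at 521 CPM against 1571 (ratio 0.331, 0.276 to 0.395), and at 474 against 1168 CPM without the cell that held most of it in each library. Its share of thinned members was 48.4% against 49.0%, so cells with Ccl22 were about as common. The libraries parted in the cells with most of it, the highest holding 16 UMIs against 250, while the median was 2.5 against 1. Ccl5 was at 14496 CPM against 7868 (1.84, 1.77 to 1.92), with a log2 ratio of 0.66 without the largest cell of each library. In cDC1 and cDC2 it was 8.76 and 2.63 times IgG. Cxcl16, a ligand of CXCR6 on T cells, was at 1099 CPM against 682 (1.61, 1.38 to 1.88). Over all 2770 measured genes 394 were 1.5-fold higher (14.2%) and 336 lower (12.1%), and the median log2 ratio was 0.04.

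Of 12 measured genes of the type I interferon list, 10 were 1.5-fold higher than IgG and 0 lower, with a median log2 ratio of 1.60. Short of 1.5-fold were Isg15, at 1052 CPM against 877 (1.20, 1.04 to 1.39), and Bst2, at 289 against 244. Ifi27l2a was at 882 against 472 (1.87, 1.57 to 2.23). Irf7, the factor that amplifies type I interferon, was at 159 CPM against 52.2 (3.05, 1.88 to 4.99), Oasl2 at 127 against 62.3 (2.03, 1.24 to 3.32) and Ifit1 at 90.4 against 18.5 (4.88, 2.32 to 11.0). Shares of cells pointed the same way for Isg15, held by 77.4% of thinned anti-PD-1 members and 40.6% of IgG members. Thinned cells of other types held it in similar order, 26.4% against 13.4% of cDC1 and 69.1% against 48.8% of C1q-positive cells. The UMIs of the list in each member, per 10000, had a median of 16.8 in anti-PD-1 (2.04 to 117) and 7.02 in IgG (0 to 127).

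A single cell of 15317 UMIs held 18.8% of the list's UMIs in the anti-PD-1 members, 91.3% of Ifit3 and 74.4% of Rsad2. It had 38 UMIs of Ccr7 and 10 of Fscn1 and also 143 of the macrophage gene Lyz2, 135 of Cxcl10 and 182 of the macrophage list. Without the leading cell of each library 7 of 9 measured genes were still 1.5-fold higher, the summed list level was 2829 CPM against 1870 in IgG, and Isg15 was at 973 against 837 CPM. Without the members that held at least 10 macrophage-list UMIs, 7 of 9 were higher as well. In cDC1 and cDC2 of the same libraries the list was higher in 5 of 6 and 13 of 18 measured genes, where 12% and 8.78% of all measured genes were. The difference was thus not confined to members, and whether its size differs between them and other dendritic cells was not tested.

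**Figure D5:**
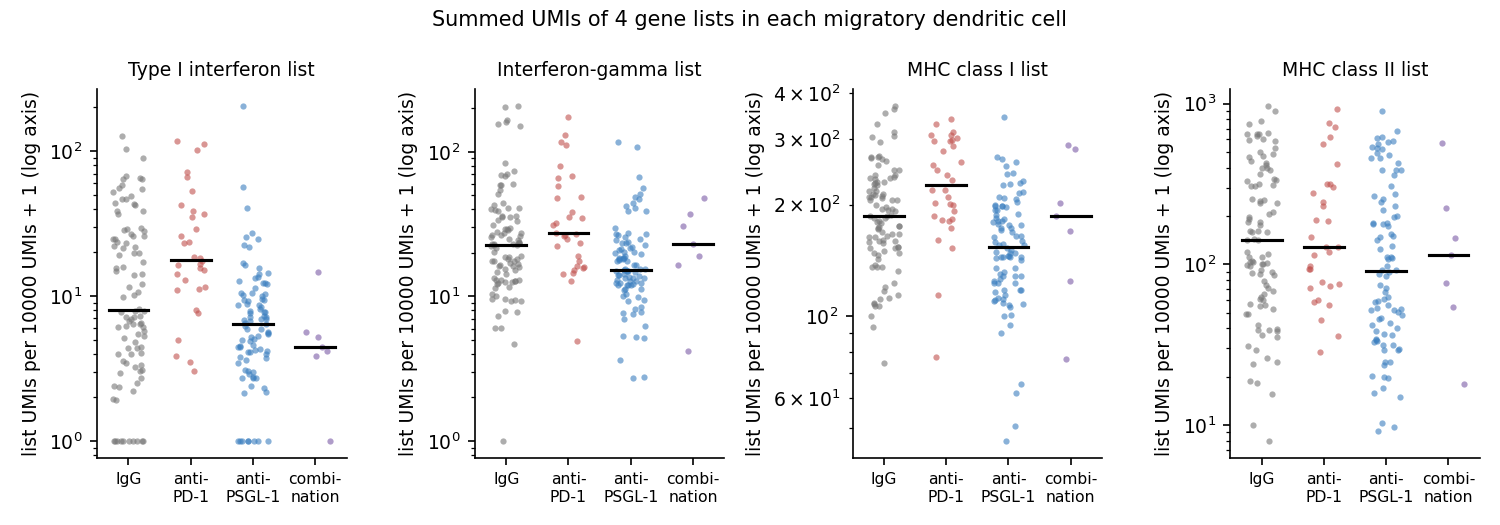
UMIs of 4 gene lists per 10000 UMIs in each member by library (log axis, value + 1); each point is a cell and each bar a median. Class I sums are narrow, from a median of 153 to one of 225, and type I interferon sums are wide and highest at the median in anti-PD-1, at 16.8.

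Genes of the interferon-gamma list split between members and other dendritic cells in the anti-PD-1 library. Of 14 measured in members 4 were higher and 1 lower, with a median log2 ratio of 0.42, while 13 of 14 were higher in cDC1 and 15 of 17 in cDC2. The count was 2 of 13 without the cell of 15317 UMIs, and was 14 of 15 over all 371 cells of the cluster. Irf1, an interferon-induced transcription factor, was at 275 CPM against 243 (1.13, 0.847 to 1.51). Cxcl9, a CXCR3 ligand induced by interferon-gamma, was at 362 CPM against 694 (0.521, 0.415 to 0.650) in members, but at 2.18 times IgG in cDC1, at 2.27 times in cDC2 and higher, by a log2 ratio of 1.25, over all cells of the cluster. Cxcl10 was at 846 CPM against 510, of which 1 cell held 57.7%, and at 379 against 375 CPM without the largest cell of each library.

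Costimulatory genes of the anti-PD-1 members went both ways, 2 of 10 higher and 4 lower. Cd86 was at 503 CPM against 307 (1.64, 1.31 to 2.06) and in 64.5% against 33.3% of thinned members. Cd40 was at 271 CPM against 426 (0.637, 0.485 to 0.827), Cd70, the ligand of CD27, at 79.6 against 170 (0.468, 0.281 to 0.747) and Tnfrsf9 (4-1BB) at 61.5 against 192 (0.320, 0.180 to 0.536). The fourth lower gene was Tnfsf9 at 72.3 CPM against 148, and the other higher one was Tnfrsf4 (OX40) at 1.58 (1.17 to 2.11). Relb was at 731 CPM against 440 (1.66, 1.38 to 2.00), and of 22 genes of the NF-kappaB and survival list 3 were higher and 2 lower. Cd274 was at 575 CPM against 461 (1.25, 1.02 to 1.52), short of 1.5-fold, and no inhibitory gene of 11 was higher and 1, Tgfb1, was lower. Of 13 cytokine and receptor genes 3 were higher and 2 lower, with a median log2 ratio of -0.26. The 3 were the receptor genes Il15ra at 1.73 (1.23 to 2.42), Il7r at 1.70 (1.30 to 2.22) and Il4ra at 1.58 (1.07 to 2.31). In the migratory programme 2 of 25 genes were higher, Ccl5 and Epsti1, and 5 lower, among them Fabp5, a fatty acid carrier, at 0.638 (0.588 to 0.691).

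Class I genes of the anti-PD-1 members lay close to IgG, and class II genes went both ways. None of 13 class I genes passed 1.5-fold, with a median log2 ratio of 0.24, and H2-K1 was at 3971 CPM against 3397 (1.17, 1.09 to 1.26). Of 11 class II genes 2 were higher and 3 lower: the proteases Ctss, at 1.68 (1.44 to 1.96), and Lgmn, at 1.78 (1.34 to 2.35), against H2-DMb1 at 0.469 (0.228 to 0.886), H2-DMb2 at 0.586 (0.377 to 0.884) and H2-Oa at 0.463 (0.218 to 0.900). H2-DMa, which pairs with the H2-DMb chains, was at 0.883 (0.625 to 1.23), and H2-Aa at 1.27 (1.20 to 1.35).

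The anti-PSGL-1 members lay below IgG in interferon-induced and presentation genes and close to IgG in the migratory programme. Of 2595 measured genes 119 were 1.5-fold higher (4.59%) and 265 lower (10.2%), with a median log2 ratio of -0.11, so that the values below start from a small shift of all genes. With median-of-ratios scaling the shift was -0.02 and 182 genes were higher and 202 lower. Cxcl9 was at 118 CPM against 694 (0.169, 0.133 to 0.214) and Cxcl10 at 60.1 against 510 (0.118, 0.0841 to 0.162). In IgG a single cell held 37.9% of the Cxcl9 UMIs and one held 27.4% of Cxcl10; without the largest cell of each library the levels were 83.7 against 441 CPM and 41.8 against 375 CPM. In cDC1 the ratio for Cxcl9 was 0.787 and in cDC2 1.06, and for Cxcl10 it was 0.799 and 0.394.

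All 5 measured genes of the type I interferon list were 1.5-fold lower in anti-PSGL-1 members, with a median log2 ratio of -0.89. Isg15 was at 275 CPM against 877 (0.314, 0.266 to 0.369) and in 18.9% against 40.6% of thinned members, and Ifi27l2a was at 254 against 472 (0.538, 0.445 to 0.649). The genes were the same way in cDC1, with 3 of 4 lower, and in cDC2, with 9 of 12, against 3.35% and 4.52% of all measured genes. For the interferon-gamma list 9 of 12 were lower in members, with a median of -0.65, and Irf1 was at 151 CPM against 243 (0.622, 0.482 to 0.802). In cDC1 3 of 10 genes of that list were lower and 1 higher, and in cDC2 5 of 14 were lower and 0 higher. The counts in members rest partly on cells outside the main cluster: with only the members inside it, 1 of 3 type I genes and 7 of 12 interferon-gamma genes were lower, and over all cells of the cluster 1 of 4 and 2 of 10. The IgG members also held more macrophage-list UMIs, 1034 against 271 CPM, and their leading cell for the type I list had 130 UMIs of Lyz2 beside 2 of Ccr7 and 1 of Fscn1. Without the members with at least 10 macrophage-list UMIs, the summed type I list was at 873 CPM against 1826 in IgG.

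Class I presentation was 1.5-fold lower in 6 of 13 genes of the anti-PSGL-1 members, with a median log2 ratio of -0.51, and none was higher. In cDC1 and in cDC2 0 of 12 class I genes passed 1.5-fold, with medians of -0.26 and -0.29. Among members, Tap1, a peptide transporter, was at 210 CPM against 323 (0.649, 0.522 to 0.805). The proteasome genes Psmb10 and Psme2 were at 0.621 (0.495 to 0.779) and 0.662 (0.605 to 0.723). H2-K1, the presenting molecule, was at 2959 CPM against 3397 (0.871, 0.820 to 0.926). Of 11 class II genes 3 were lower: H2-Ab1 at 1920 CPM against 3031 (0.633, 0.590 to 0.679), H2-DMb1 at 0.389 (0.236 to 0.628) and H2-DMb2 at 0.584 (0.433 to 0.785). The loading genes H2-DMb1 and H2-DMb2 were thus lower than IgG in both single-antibody libraries, which share the IgG cells as their control. Among members that also held Ccl22, both lay level with IgG in anti-PD-1, at log2 ratios of 0.07 and 0.05.

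Among surface ligands of the anti-PSGL-1 members, Cd274 was at 299 CPM against 461 (0.648, 0.541 to 0.776) and in 34.4% against 51.0% of thinned members. Pdcd1lg2 was at 96.2 CPM against 143 (0.672, 0.484 to 0.931), just short of 1.5-fold. Cd274 was among the 4 of 11 inhibitory genes that were lower, none being higher. Cd70 was at 46.8 CPM against 170 (0.275, 0.182 to 0.407) and Tnfrsf4 at 94.8 against 190 (0.498, 0.365 to 0.676), the 2 of 10 costimulatory genes that were lower. Cd86 was at 1.07 (0.878 to 1.30) and Cd83, a maturation marker, at 0.912 (0.826 to 1.01), so these maturation genes differed little. Il1b was at 1246 CPM against 2243 (0.556, 0.510 to 0.605), with 0.675 in cDC1 and 0.952 in cDC2.

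Ccl22 of the anti-PSGL-1 members lay level with IgG and Ccl17 higher, while the chemokine list had 1 of 9 genes higher and 4 lower and the cytokine and receptor list 0 of 13 higher and 2 lower. Ccl22 was at 1658 CPM against 1571 (1.06, 0.968 to 1.15), Ccl17 at 393 against 232 (1.69, 1.38 to 2.08) and in 24.4% against 11.5% of thinned members, and Il12b at 1352 against 928 (1.46, 1.31 to 1.62). Of 21 genes of the NF-kappaB and survival list 0 passed 1.5-fold either way, and of 25 of the migratory programme 1 was higher and 1 lower. Of 12 genes of the dissociation stress list 3 were higher and 0 lower: Fosb, at 189.7 CPM against 126, and the heat shock pair, Hspa1a at 295 CPM against 77.5 (3.81, 2.76 to 5.36) and Hspa1b at 192 against 25.3 (7.61, 4.47 to 14.0), although Hspa1a was in 6.67% of thinned anti-PSGL-1 members and 6.25% of thinned IgG members, and 1 cell gave 37.6% of the Hspa1a and 50% of the Hspa1b UMIs of anti-PSGL-1. Hspa1a was 3.39 times IgG in cDC1 and 0.221 times in cDC2. Division genes were rare: Mki67 was at 56.1 CPM against 26.9 (2.08, 1.15 to 3.97) and in 4.44% of thinned members, with 50% of its UMIs in 1 cell of each library, and it lay lower, at a log2 ratio of -0.39, among members that also held Ccl22.

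In the combination library the 7 members gave 85622 UMIs, and their levels are set out beside the others without counts over lists. Ccl22 was at 1693 CPM (1429 to 1993), near IgG and anti-PSGL-1 and above anti-PD-1. Cd86 was at 736 CPM (565 to 941), above the other libraries, though 1 cell gave 41.3% of it, and Ccl5 at 5244 (4770.1 to 5752), below them. Isg15 was at 117 CPM (56.0 to 215), from 10 UMIs, and Cxcl9 at 140 CPM from 12 UMIs. Pdcd1lg2 was at 46.7 CPM from 4 UMIs. The intervals of Isg15 and Cxcl9 lay below those of IgG and anti-PD-1, but 1 cell of 7 can move any of these levels.

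The targets of the antibodies were also read in the members. Selplg, the gene of PSGL-1, was at 628, 799, 570 and 514 CPM in the 4 libraries and was found in 80.2%, 93.5%, 68.9% and 57.1% of thinned members. Pdcd1, the gene of PD-1, was low, at 38.7, 18.1 and 13.4 CPM, with 0 UMIs in the combination. Rnaset2a, a ribonuclease gene, was at 35.4, 333, 45.4 and 46.7 CPM in members, highest in anti-PD-1, and in C1q-positive cells it was at 43.8 CPM in anti-PD-1 against 6.82 in IgG.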

How the data were processed

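The authors deposited UMI counts per gene and cell barcode for each of the 4 libraries, made with Cell Ranger 3.1.0 on mm10, with FastQC also named, per the submitters' processing notes. From these counts, barcodes were filtered and members chosen by the rule stated above, and UMIs were summed over members and divided by their total (CPM). The members and gene lists were chosen with earlier results of these data known. With 1 library per group no test between groups was made, and exact Poisson and binomial 95% intervals cover counting error only. A gene was measured at 50 CPM or more in either library and called past 1.5-fold, and lists were counted only where both libraries held at least 30 members. Named genes were core genes, the 5 genes each way with the largest ratio by the interval bound nearest 1, and up to 3 of each list each way, leaving out receptor, mitochondrial, ribosomal, haemoglobin, sex-linked and unnamed genes; genes that complete a list's count were also named. Against cDC1 and cDC2, 8 genes each way were taken by their smallest ratio over libraries, and others were chosen by role.

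Scrublet's own threshold called 1, 84, 0 and 42 cells, so it had not worked; no doublets were removed, and removing the 7.58%, 4.18%, 5.49% and 3.51% of cells with the highest scores was an alternative that took out 7, 3, 5 and 0 members. Where a symbol had more than 1 gene ID, the one with most UMIs was used. Some listed genes were not analysed here, and some items are not reported here. Tools were Python 3.11.15, numpy 2.4.6, scipy 1.17.1, pandas 2.3.3, scanpy 1.11.5, leidenalg 0.10.2 and matplotlib 3.10.9.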

Additional observations from a re-analysis of the deposited data

Results flagged for a closer look

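Some genes differed between libraries one way in migratory cells and the other way in cDC1 or cDC2, and with 1 library per group none of these differences between cell types was tested. In anti-PD-1 against IgG, Cxcl9 was at a ratio of 0.521 in members, with 37.9% of the IgG UMIs in 1 cell, and at 2.18 in cDC1 and 2.27 in cDC2. Cd40 was at 0.637 in members and 1.67 in cDC2, and Cd44, an adhesion receptor, at 0.457 and 1.52 in cDC1. The neutrophil chemokine Cxcl2 was at 0.0911 in members, with 61.2% of its IgG UMIs in 1 cell, and at 1.95 in cDC2. Hspa1b was at 3.44 in members, with 87.5% of its anti-PD-1 UMIs in 1 cell, and at 0.345 in cDC2. In anti-PSGL-1 against IgG, H2-DMb2 was at 0.584 in members and 1.53 in cDC2. The heat shock genes Hspa1a and Hspa1b were at 3.81 and 7.61 in members and at 0.221 and 0.409 in cDC2.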

How the results depend on the processing

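No paired analysis was possible because each group was 1 library, and for the same reason leave-one-out was not run. Depth limits the combination most, with 7 members, and genes under 50 CPM in every library. Alternatives on other markers, the cluster, macrophage-list cells, the leading cell and the cell with most UMIs of a gene include ones chosen after seeing the data.

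The share of members in kept cells moved when Ccl22 was required (0.634% in IgG, 1.00% in anti-PSGL-1), when cells with other markers were removed (0.792% and 0.990%), without the Cd3 limit (2.17%, 2.10% and 0.388% in IgG, anti-PSGL-1 and combination) and over all cells of the main cluster (1.55%, 0.974%, 2.29% and 0.365% in library order).

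For anti-PD-1 against IgG, with no filter on level 2205 genes were higher and 4156 lower, with 3 type I and 2 interferon-gamma genes lower. The interferon-gamma genes higher numbered 10 with Ccl22 required, 14 over the cluster, and 2 without macrophage-list cells or without the leading type I cell; those lower were 0 among members in the cluster and 0 over the cluster. With likely doublets removed 6 type I genes were higher. Log2 ratios that turned were Ccl17 with each cell weighed the same (0.95); H2-DMb1 (0.065), H2-DMb2 (0.047), Ltb and Stmn1 (0.0040 each) with Ccl22 required; Ccl2 (-1.06), Fcgr1 (-0.55), Gbp7 (-0.40), Ly6c2 (-2.27) and Spp1 (-1.72) with doublets removed; and Spp1 (-0.57) with other markers removed. Others were Cxcl10 (-0.026) and Ly6c2 (-0.51) among members in the cluster, and Birc3 (0.10), Cxcl9 (1.25), Ifit3 (-1.44) and Spp1 (-2.41) over the cluster. Cxcl10 also turned without macrophage-list cells (-0.43) and without the leading cell (-0.43), as did Gbp7 (-0.10) without the leading cell, and Hspa1b (-0.62) and Spp1 (-0.64) without the cell with most of their UMIs.

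For anti-PSGL-1 against IgG, 182 genes were higher with median-of-ratios scaling, and 3034 were higher and 2799 lower with no filter on level, where 2 type I genes were higher and 16 lower and 1 interferon-gamma gene was higher and 14 lower. With each cell weighed the same 5 interferon-gamma genes were lower. Type I genes lower numbered 2 with Ccl22 required, 3 with other markers removed, 3 with a Cd3 sum of 1 allowed, 1 among members in the cluster and 1 over the cluster, where 97 genes and 2 interferon-gamma genes were lower. Log2 ratios that turned were Mki67 (-0.39) with Ccl22 required, Gzma with doublets (-3.69) or other markers (-2.29) removed, Apoe (3.47), Cd14 (0.31), Ly6a (0.026), Oasl2 (0.048) and Pdcd1 (0.023) over the cluster, and Lyz2 (0.93) without macrophage-list cells. The cause was not tested. With median-of-ratios scaling 150 of 154 log2 ratios over both comparisons kept their call, past 1.5-fold the same way or short of it. Over all cells of the cluster 108 of 153 did. Changes of size that left the call as it was are not counted there.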
